A study of Mus musculus with 4 samples.

Results

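The 8 genes Nras, Hras, Rras, Rras2, Nf1, Rasa1, Sos1 and Braf, which encode RAS GTPases, the proteins that switch them on and off, and a RAF kinase, were taken by exact symbol from a table of 24589 entries and described in mouse leukemic cells with and without a Tet2 deletion. All 8 were in the table, and all 8 reached 1 TPM (transcript abundance corrected for transcript length and scaled to a fixed total) in at least 2 of the 4 libraries, the filter that left 11837 genes for testing. The cells had been grown out from hematopoietic stem cells of bone marrow, of wild-type mice for the 2 WT libraries and of Tet2-/- mice, in which exons 8 to 10 are missing, for the 2 libraries labelled Tet2 KO. Every library, controls included, came from cells labelled NRAS/AE9a, so both groups carry NRAS and AE9a, a shortened AML1-ETO fusion. The medium was RPMI. It held the growth factors IL-6 and IL-3 (10 ng/ml of each) and SCF (50 ng/ml), together with puromycin (2 µg/ml) and G418 (1 mg/ml), drugs that keep cells carrying a resistance gene. The NRAS allele, its species and vector, and the number of mice or clones behind the cells are not given in the sources used here.

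RAS proteins are membrane-bound switches that are active when they hold GTP and inactive when they hold GDP. Exchange factors such as SOS1 load them with GTP after a growth factor receptor is engaged, and GTPase-activating proteins such as neurofibromin, the product of Nf1, and p120 RasGAP, the product of Rasa1, make them hydrolyse it. Active RAS recruits RAF kinases, which start the MEK and ERK cascade, and mutations of NRAS, loss of NF1 and other lesions of this pathway recur in myeloid leukemia. Because NRAS was introduced into these cells, the gene-level Nras value may hold reads from the endogenous gene, from the introduced sequence, or from both, which cannot be told apart here.

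The GTPase genes are close relatives, whose reads a counting method must keep apart. In GENCODE transcripts on GRCm38, no stretch of 50 bases in the main coding transcript of Hras, Rras, Rras2, Nf1, Rasa1, Sos1 or Braf occurred in a transcript of another gene. For Nras, 0.79% of 4421 such stretches did, most often in Spc24, Tmem234 and Zfp617, which encode no RAS protein. A stretch of 50 bases was used because the read length is not given in the sources used here, and sequence of an introduced NRAS was not analysed.

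In GRCm38, Nras lies on chromosome 3 from 103058285 to 103067914 (plus strand), and its transcript has 7 exons and 4470 bases, of which 567 are coding. Hras (141189105 to 141194005, minus strand), Rras (45017961 to 45021647, plus strand) and Rras2 (114046782 to 114117781, minus strand) all lie on chromosome 7. Nf1 lies on chromosome 11 from 79339693 to 79581612 (plus strand), with 58 exons and 8523 coding bases. Rasa1 lies on chromosome 13 from 85214780 to 85289130, Sos1 on chromosome 17 from 80393751 to 80480453 and Braf on chromosome 6 from 39603237 to 39725463, all on the minus strand.

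The 250 bases before the RefSeq starts (GRCm38.p6) of Nras and Hras are printed because these RAS genes were called in opposite directions. The Hras call lay close to the threshold and was lost in 11 of 17 alternative processing settings. The Nras run lies before the endogenous gene, while the measured Nras may also come from the introduced sequence. Capitals mark CG dinucleotides, the sequence in which TET2 oxidises methylated cytosine. Methylation itself was not measured in these libraries.
Nras, chr3:103058035-103058284, plus strand: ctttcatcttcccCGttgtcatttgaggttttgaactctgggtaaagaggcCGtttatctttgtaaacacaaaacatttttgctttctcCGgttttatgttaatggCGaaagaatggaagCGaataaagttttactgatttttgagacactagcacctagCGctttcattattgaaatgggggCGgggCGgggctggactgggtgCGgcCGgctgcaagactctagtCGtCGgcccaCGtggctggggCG
Hras, chr7:141194005-141194254, minus strand: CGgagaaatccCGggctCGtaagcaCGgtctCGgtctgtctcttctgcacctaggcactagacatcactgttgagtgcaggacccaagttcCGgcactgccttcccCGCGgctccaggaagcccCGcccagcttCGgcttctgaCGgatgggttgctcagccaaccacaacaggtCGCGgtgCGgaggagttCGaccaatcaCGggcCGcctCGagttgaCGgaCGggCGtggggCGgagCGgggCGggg
The Nras run holds 14 CG dinucleotides and is 48.4% G and C, and the Hras run holds 24 and is 65.6% G and C. The median over 32851 promoters of the same length was 6. On either strand, the GC box GGGCGG occurs 2 times in the Nras run and 3 times in the Hras run, and is present in 32.7% of all promoters. The E-box CACGTG occurs 1 time for Nras and not for Hras (6.0% of all promoters), and CCAAT occurs 1 time for Hras and not for Nras (33.8%). Both GGGCGG and CACGTG contain a CG, so these counts overlap with the CG count. The ETS motif CCGGAAG, which is in 6.9% of all promoters and also contains a CG, was found for Nf1 and Rasa1 and not for the other members. The CRE motif TGACGTCA, which is in 1.5% of all promoters and contains a CG too, occurs 2 times for Braf and not for the other members.

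The libraries carried 9 of 10 listed markers of myeloid leukemia and progenitor cells at levels that passed the filter. Of 9 such markers tested, 5 rose in the libraries labelled knockout, 3 fell (Itgam, Csf2rb and Spi1) and Runx1 did not pass, and their part in the results below was not tested. Cd34 was at 189 and 199 TPM in WT and 270 and 266 TPM in the libraries labelled knockout, Mpo at 731 and 758 against 990 and 1037 TPM, and Kit at 5.10 and 5.39 against 7.98 and 8.80 TPM. Flt3 was near 0 (0.13 to 0.43 TPM). Markers of T cells summed to at most 0.22 TPM over the 5 genes measured, with Cd3e listed at 0 in every library. B cell markers summed to 2.78 and 2.84 TPM in WT and to 4.63 and 4.78 TPM in the libraries labelled knockout. Stromal and endothelial markers summed to 6.46 and 6.72 against 9.14 and 9.07 TPM. No T cell marker reached the filter. In the B cell list and in the stromal and endothelial list the 1 gene tested rose, and their part was not tested. All 15 listed granulocyte genes, Elane among them, fell in the libraries labelled knockout. Their summed level there was 24030 and 24340 TPM, against 47890 and 47250 TPM in WT. The part of this difference in the results was not tested, but the change of each member was also computed with these genes and the spike-ins taken out of the total. Of 9 macrophage genes tested, 5 fell and 1 rose, with sums of 1400 and 1410 TPM in WT and 600 and 584 TPM in the libraries labelled knockout, and Marco was listed at 0 throughout. Erythroid markers summed to 142 and 136 TPM in WT and to 203 and 234 TPM in the libraries labelled knockout, where 1 of the 2 tested rose and Hbb-bt carried nearly the whole sum, while Hbb-bs was listed at 0. Their part was not tested either. Tet2 itself was measured at 35.05 and 39.95 TPM in WT and at 53.5 and 52.8 TPM in the libraries labelled knockout. A value over the whole gene does not check a deletion of 3 exons, so every direction below follows the labels. Depth is unknown because TPM do not keep it. With bulk RNA, a change in the number of cells of a type and a change in RNA per cell cannot be told apart.

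Nras was by far the most abundant of the 8 transcripts. It averaged 185 TPM over the 4 libraries, higher than 93.6% of tested genes, and its lowest library lay above the highest library of every other member. Rras followed at 48.6 TPM, again apart from its neighbours. Braf (21.1 TPM), Hras (19.6 TPM), Rasa1 (19.3 TPM) and Sos1 (17.0 TPM) came next, and each of these overlapped with the next in the order over the 4 libraries. Sos1 also overlapped with Nf1 (13.2 TPM), and Rras2 was lowest, at 4.10 TPM. TPM are corrected for length, so these levels can be compared between genes, although their spread covers 4 libraries of both groups. For Nras the length of any introduced transcript is not known. Its level, and its shares and ratios below, are therefore less certain.

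**Figure D1:**
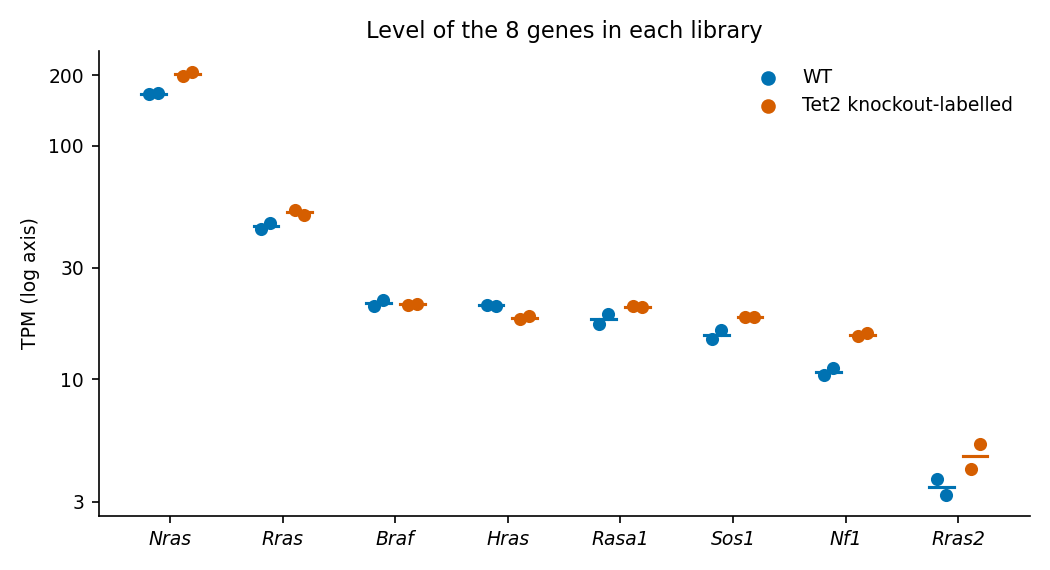
TPM of each of the 8 genes (log axis) in the 2 WT libraries (blue points) and the 2 libraries labelled Tet2 knockout (orange points), with bars at the group means. Nras sits above all others in every library, and Hras is the member whose knockout-labelled libraries both lie below both WT libraries.

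Between the groups, 4 of the 8 genes rose in the libraries labelled knockout (Nf1, Nras, Sos1 and Rras), Hras fell, and Rras2, Rasa1 and Braf did not pass. Every change was small: the ratio of mean TPM between the groups ran from 0.88 for Hras to 1.44 for Nf1. A gene was called at an adjusted p under 0.05 (limma on log2 of TPM + 1, Benjamini-Hochberg over all 11837 genes). By this rule 30.5% of all tested genes were called, 18.9% higher and 11.6% lower, which is the background for 5 calls among 8 genes. Of all calls 62.0% were higher, a share of 48.2% with trimmed-mean scaling and of 29.9% with spike-in scaling. The median change was 0.21 on the log2 scale for the 8 genes and 0.04 for all tested genes. The groups did not overlap for 7 of the 8 genes, 6 higher and 1 lower, against 68.6% of all tested genes, 42.2% higher and 26.5% lower. With 2 libraries per group an exact permutation test of a single gene cannot go below p = 0.333, so the calls rest on the spread that limma shares across genes.

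**Figure D2:**
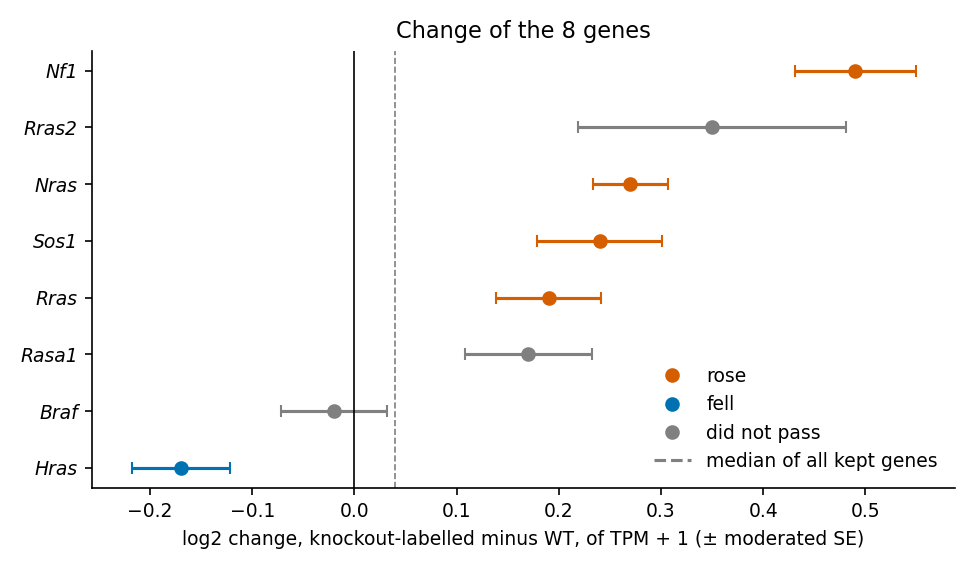
Change of each of the 8 genes, knockout-labelled minus WT, on the scale of log2(TPM + 1), with the moderated standard error as bars, orange where the gene rose, blue where it fell and grey where it did not pass. The dashed line is the median of all tested genes (0.04), and Nf1 lies farthest from it, at 0.49.

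Among the GTPases, Nras measured 166 and 169 TPM in WT and 198 and 207 TPM in the libraries labelled knockout. Both knockout-labelled libraries lay above both WT libraries, by a ratio of means of 1.21. This is a log2 change of 0.27 (SE 0.037, adjusted p = 0.0052), larger than that of 76.9% of tested genes. Scaling the libraries to their spike-in RNA lowered the change to 0.16 (adjusted p = 0.19), and leaving out replicate 2 of the knockout-labelled group gave 0.24 (adjusted p = 0.057). Under spike-in scaling the median of all genes moved by -0.11, to -0.07. Spike-in RNA took 2.98% and 3.30% of each WT total, and 3.41% and 3.39% of the knockout-labelled ones. Without the granulocyte genes and the spike-ins in the total, Nras still rose, by 0.24 (adjusted p = 0.0082).

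Hras, a close relative of Nras, went the other way. It measured 20.9 and 20.6 TPM in WT and 18.1 and 18.7 TPM in the libraries labelled knockout, so the groups were again apart. The log2 change was -0.17 (SE 0.048, adjusted p = 0.049), close to the threshold. It kept its sign in all 17 alternative settings, from -0.28 to -0.14, but passed in only 6 of them. The call was lost when any of the 4 libraries was left out (adjusted p = 0.093 without WT replicate 2, 0.13 without WT replicate 1, 0.22 and 0.14 without knockout-labelled replicates 1 and 2).

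Rras, whose protein acts mainly in integrin adhesion, measured 43.9 and 46.9 TPM in WT and 53.0 and 50.6 TPM in the libraries labelled knockout. All knockout-labelled values were higher, with a log2 change of 0.19 (SE 0.051, adjusted p = 0.042). The call was lost in 11 of 17 settings, among them spike-in scaling (0.07, adjusted p = 0.51), and without WT replicate 1 (adjusted p = 0.12) or knockout-labelled replicate 1 (adjusted p = 0.22) or 2 (adjusted p = 0.12). Rras2, which encodes TC21, a GTPase with transforming activity, was at 3.75 and 3.22 TPM in WT and 4.14 and 5.30 TPM in the libraries labelled knockout. Its log2 change was 0.35 with an SE of 0.131 (adjusted p = 0.10, 95% interval 0.02 to 0.67 before adjustment). Leaving out each library in turn gave 0.20 to 0.49, the lowest without knockout-labelled replicate 2, and a pseudocount of 5 gave 0.19. No setting brought it past the threshold, and a filter at 5 TPM removed it.

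Among the 4 GTPase genes of the set, Nras made up 70.7% and 70.4% of the summed TPM in WT and 72.4% and 73.5% in the libraries labelled knockout. The share of Hras was 8.9% and 8.6% in WT and 6.6% in both libraries labelled knockout. The share of Rras overlapped between the groups, at 18.7% and 19.6% in WT and 19.4% and 18.0% in the libraries labelled knockout, and so did that of Rras2, which stayed between 1.3% and 1.9%. The summed level was 234 and 239 TPM in WT and 273 and 281 TPM in the libraries labelled knockout. A ratio of 2 genes within a library does not depend on how the libraries are scaled. There were 7.92 and 8.17 Nras transcripts per Hras transcript in WT and 10.9 and 11.1 in the libraries labelled knockout (exact two-sided permutation p = 0.333, the smallest that 2 against 2 allows, and 0.467 adjusted over the 7 ratios computed).

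**Figure D3:**
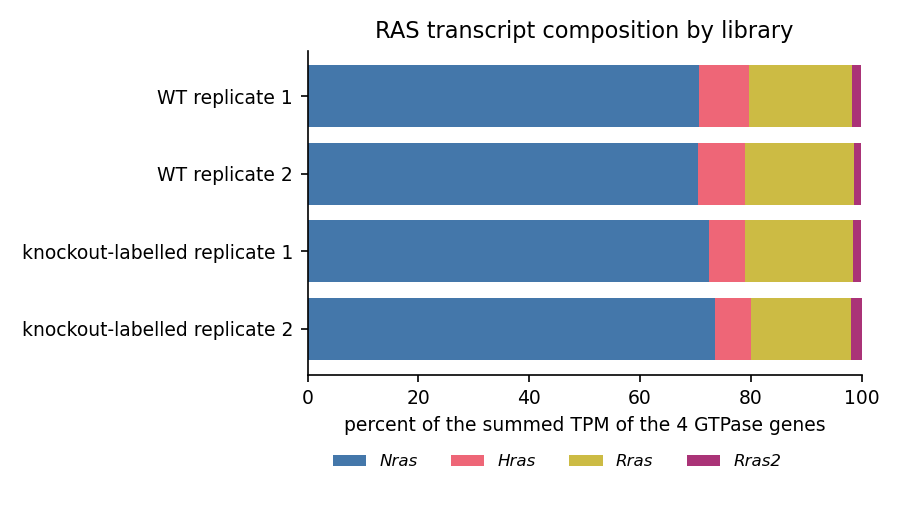
Share of Nras, Hras, Rras and Rras2 in their summed TPM (horizontal axis, percent) in each of the 4 libraries (bars). Nras holds 70.7% and 70.4% in WT and 72.4% and 73.5% in the libraries labelled knockout, and the Hras segment narrows from 8.9% and 8.6% to 6.6% in both.

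Of the GTPase-activating proteins, Nf1 had the largest change of the 8 genes by absolute value on the log2 scale. It measured 10.5 and 11.2 TPM in WT and 15.4 and 15.7 TPM in the libraries labelled knockout. Both knockout-labelled libraries lay well above both WT libraries, by a ratio of 1.44. The log2 change was 0.49 with an SE of 0.059 (adjusted p = 0.0039), larger than that of 90.9% of tested genes. Nf1 was called in all 17 alternative settings, with a change from 0.38 to 0.53, including spike-in scaling (0.38, adjusted p = 0.013) and removal of the trend with GC content and length (0.39, adjusted p = 0.0056). It was the only member to pass with spike-in scaling.

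Rasa1 measured 17.3 and 19.1 TPM in WT and 20.5 and 20.4 TPM in the libraries labelled knockout. Its groups did not overlap, but WT replicate 1 lay below WT replicate 2 by nearly as much as the groups differed. The change of 0.17 did not pass (SE 0.062, adjusted p = 0.10, 95% interval 0.01 to 0.32 before adjustment), except without WT replicate 2 (0.23, adjusted p = 0.043). Nf1 made up 37.7% and 36.9% of the summed TPM of Nf1 and Rasa1 in WT and 42.8% and 43.5% in the libraries labelled knockout. There were 15.8 and 15.1 Nras transcripts per Nf1 transcript in WT and 12.9 and 13.2 in the libraries labelled knockout (exact permutation p = 0.333, adjusted 0.467). Against Nf1 and Rasa1 together the ratio overlapped between the groups, at 5.98 and 5.58 in WT and 5.51 and 5.72 in the libraries labelled knockout (exact permutation p = 0.667, adjusted 0.667).

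Sos1, the exchange factor that GRB2 brings to activated receptors, measured 14.9 and 16.3 TPM in WT and 18.6 and 18.5 TPM in the libraries labelled knockout. The groups were apart, with a log2 change of 0.24 (SE 0.061, adjusted p = 0.036). The call was lost with the trend with GC content and length removed (0.11, adjusted p = 0.14), with spike-in scaling (0.13, adjusted p = 0.27), and without WT replicate 1 (0.18, adjusted p = 0.11) or either knockout-labelled library (0.24 and adjusted p = 0.15 for each). The Sos1 transcript has 8436 bases with 41.0% G and C, and that of Nf1 has 11917 bases with 44.9%. Transcripts of Sos1 per Nf1 transcript numbered 1.42 and 1.46 in WT and 1.21 and 1.18 in the libraries labelled knockout (exact permutation p = 0.333, adjusted 0.467).

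Braf, the RAF kinase among the 8, did not pass. It measured 20.68 and 21.98 TPM in WT and 20.8 and 21.1 TPM in the libraries labelled knockout, with overlapping groups. The log2 change was -0.02 (SE 0.052, adjusted p = 0.75, 95% interval -0.16 to 0.11), and it turned to 0.02 without WT replicate 2. It was -0.14 with spike-in scaling (adjusted p = 0.24) and also with the trend with GC content and length removed (adjusted p = 0.066). Its relative Araf measured 49.0 and 48.1 TPM in WT and 51.8 and 52.7 TPM in the libraries labelled knockout (0.10, adjusted p = 0.090, or -0.01 with spike-in scaling). There were 2.37 and 2.19 Araf transcripts per Braf transcript in WT and 2.50 in both libraries labelled knockout (exact permutation p = 0.333, adjusted 0.467).

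**Figure D4:**
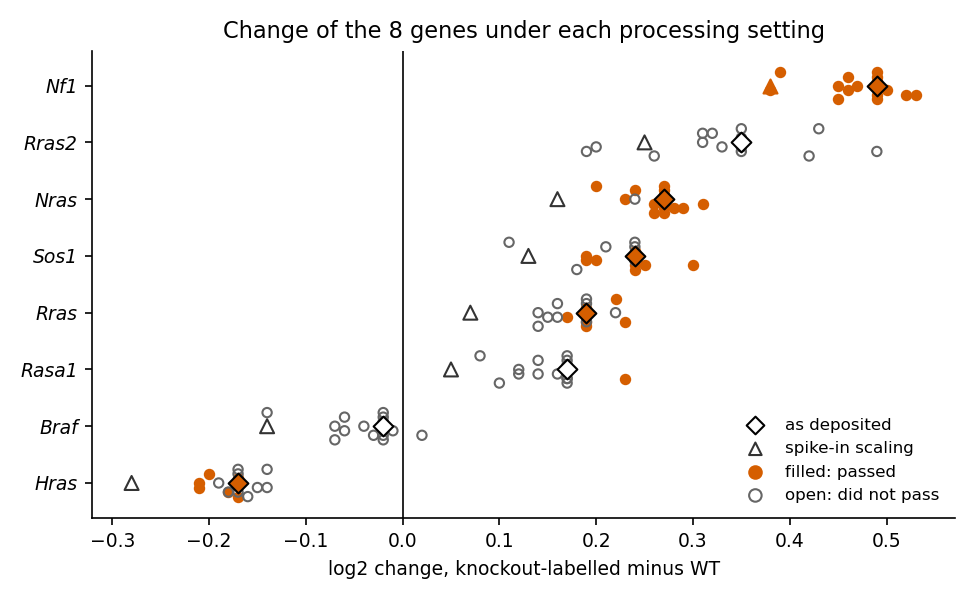
Log2 change of each of the 8 genes (knockout-labelled minus WT) as deposited (diamonds), with spike-in scaling (triangles) and under the other alternative settings (circles), filled where the gene passed the threshold of the setting and open where it did not. Nf1 is filled throughout, while Hras, Rras and Sos1 are a mixture of filled and open points on a single side of 0.

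The rest of the pathway was described with 7 lists that hold 116 further genes, of which 97 were tested. Of these, 23 rose, 8 fell and 66 did not pass, which is to be read against 18.9% and 11.6% of all tested genes, and their median change was 0.10. Rasd2 among the rises, and Ksr2 and Epha2 among the falls, reached the filter only in the group where they were higher. With a filter at 5 TPM, which removed these and other genes, 20 rose and 6 fell. In that setting 2154 of all 9812 tested genes rose and 1241 fell. With spike-in scaling 6 rose and 9 fell, where 631 of all 11837 tested genes rose and 1477 fell. These are also the background for the spike-in counts of each list below. Leaving out each library gave 7 to 27 that rose and 2 to 4 that fell, with 7 and 8 rising without knockout-labelled replicates 1 and 2 and 14 without WT replicate 1. The genes named are those of smallest p in each list and a few RAF, MEK and ERK kinases, while Rasd2, Spred3, Pik3cb, Pik3r1 and Epha2, which complete the counts, and Sos2 and Dusp6 were added after their values were seen.

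Of 19 other GTPases of the RAS subfamily, 4 rose and Rap1b fell (median 0.12, or 0.03 with spike-in scaling, where 2 rose and 1 fell). Gem, a GTPase that inhibits calcium channels, measured 10.26 and 11.08 TPM in WT and 33 and 34.67 TPM in the libraries labelled knockout (1.58, adjusted p = 1.3e-04). Rap2a rose by 0.36, Nkiras2, whose product binds the NF-kB inhibitor, by 0.20, and Rasd2 by 0.74 from under 1 TPM. Rasd2 reached the filter only in the libraries labelled knockout, where it was higher. Rap1b, a regulator of integrins and the most abundant of the list at 272 and 288 TPM in WT, fell to 243 and 244 TPM (-0.20). Nkiras2 and Rap1b were not called without either knockout-labelled library (adjusted p from 0.088 to 0.12), nor Rasd2 without WT replicate 1 (adjusted p = 0.056). A further 10 GTPases of the list stayed below the filter.

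Of 13 exchange factors and adaptors, 3 rose and 1 fell (median 0.06, or -0.05 with spike-in scaling, where 1 rose and 1 fell). Rasgrp1, an exchange factor driven by diacylglycerol and calcium and best known from T cells, measured 7.64 and 8.14 TPM in WT and 17.9 and 17.8 TPM in the libraries labelled knockout (1.08, SE 0.059, adjusted p = 3.8e-04). Its change exceeded that of Sos1 (0.24) and it was called in all 17 alternative settings, but the difference between the genes was not tested. Gab2, a docking protein of cytokine receptors, rose by 0.26 and Rasgrp3 by 0.48, and the adaptor Grap fell by 0.27. These 3 calls were each lost without WT replicate 1 and without knockout-labelled replicate 1, and those of Rasgrp3 and Grap also without knockout-labelled replicate 2 (adjusted p from 0.069 to 0.18). Sos2, the close relative of Sos1, did not pass (0.15, adjusted p = 0.064), nor under any of the 17 alternatives. With the trend with GC content and length removed, neither Grap (-0.23, adjusted p = 0.060) nor Rasgrp3 (0.42, adjusted p = 0.051) passed.

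Of 9 other GTPase-activating proteins and SPRED partners of neurofibromin, 4 rose, Rasa2 fell and 4 did not pass (median 0.23, or 0.12 with spike-in scaling, where 1 rose and 1 fell). Rasa4, a calcium-promoted RAS inactivator, measured 20.9 and 18.7 TPM in WT and 27.4 and 29.6 TPM in the libraries labelled knockout (0.51, adjusted p = 0.0059), and it was called in all 17 alternative settings. Spred1, which brings neurofibromin to the membrane, rose by 0.30, Dab2ip by 0.31 and Spred3 by 0.23, while Rasa2 fell by 0.18. Those 4 calls were lost without either knockout-labelled library (adjusted p from 0.067 to 0.19), that of Spred3 also without WT replicate 1 and that of Rasa2 without WT replicate 2.

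Of 15 other RAF, MEK and ERK kinases and scaffolds, 2 rose and 1 fell (median 0.01, or -0.11 with spike-in scaling, where Ksr2 alone was called). The MEK genes Map2k1 (-0.03, adjusted p = 0.64) and Map2k2 (-0.12, adjusted p = 0.13) and the ERK gene Mapk3 (-0.08, adjusted p = 0.21) did not pass. For Map2k1 the sign turned without knockout-labelled replicate 1 (0.01), and Mapk3 passed with trimmed-mean scaling alone (-0.12, adjusted p = 0.048). The scaffold Ksr1 rose by 0.28, and its relative Ksr2 fell from 2.13 and 2.73 TPM to 0.36 and 0.46 TPM (-1.28, adjusted p = 0.0035). Ksr2 reached the filter only in the WT libraries, where it was higher, so it was tested only because of that difference. It was not tested without either WT library. Pebp1, which binds and inhibits RAF kinase, rose by 0.21, a call lost in 9 settings. The calls of Ksr1 and Pebp1 were lost without either knockout-labelled library, and that of Ksr1 without WT replicate 1 (adjusted p from 0.073 to 0.17).

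Of 16 genes of RAS lipid processing, transport and turnover, 3 rose and 0 fell in the limma fit (median 0.04, or -0.07 with spike-in scaling, where Abhd17b alone was called). At an unadjusted p under 0.05, 4 were higher and 0 lower. In the other lists, which differ in size, 4 to 7 were higher and 1 to 4 lower. The share of all tested genes at that threshold is not given, so these counts have no background. Abhd17b, which removes palmitate from NRAS, measured 48.1 and 49.2 TPM in WT and 65.7 and 63.2 TPM in the libraries labelled knockout (0.40, adjusted p = 0.0023), and was called in all 17 alternative settings. The deubiquitinase Usp9x rose by 0.20 and Fntb, the farnesyltransferase subunit, by 0.21. With the trend with GC content and length removed Usp9x was at 0.05 (adjusted p = 0.44). Usp9x was not called without either knockout-labelled library and Fntb not when any of the 4 libraries was left out (adjusted p from 0.062 to 0.15). Pggt1b, the subunit of the enzyme that attaches the alternative lipid, did not pass (0.16, adjusted p = 0.077).

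Of 16 effectors outside RAF, 3 rose and 3 fell (median 0.02, or -0.09 with spike-in scaling, where the 3 rises did not pass and 3 genes fell). Tiam1, a RAC exchange factor, fell from 61.7 and 60.8 TPM to 43.3 and 43.0 TPM (-0.50, adjusted p = 8.7e-04), in all 17 alternative settings as well. Among the PI3-kinase genes, the leukocyte catalytic subunits Pik3cg (0.27) and Pik3cd (0.24) and the regulatory subunit Pik3r1 (0.19) rose, while the broadly expressed Pik3cb (-0.20) fell, as did Rgl2 (-0.33), which activates RAL. Pik3r1 did not pass with the trend with GC content and length removed (0.11, adjusted p = 0.073). Pik3cd was not called without either knockout-labelled library, Pik3r1 not without these or WT replicate 1, Pik3cb not without any single library, and Rgl2 not without knockout-labelled replicate 1 (adjusted p from 0.052 to 0.15).

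Of 9 genes whose transcription follows ERK activity, 4 rose and Epha2 fell (median 0.15, or 0.03 with spike-in scaling, where 1 rose and 2 fell). The ERK phosphatase Dusp4 rose from 8.04 and 7.15 TPM to 14.5 and 13.2 TPM (0.79, adjusted p = 0.0024). The cyclin Ccnd1 (0.25), the feedback inhibitor Spry4 (0.48) and the ETS factor Etv4 (0.28) also rose. Epha2, which reached the filter only in the WT libraries, where it was higher, changed by -0.51 at about 1 TPM. The calls of Ccnd1, Spry4, Etv4 and Epha2 were lost without either knockout-labelled library, and those of Spry4 and Etv4 also without WT replicate 1. That of Etv4 was lost in 9 of 17 alternative settings, among them trimmed-mean scaling, while Dusp4 was called in all 17. Dusp6, the most abundant of the list at 119 to 138 TPM, did not pass (0.15, adjusted p = 0.061), but did in 3 of 17 alternatives, among them without WT replicate 2 (0.20, adjusted p = 0.019).

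**Figure D5:**
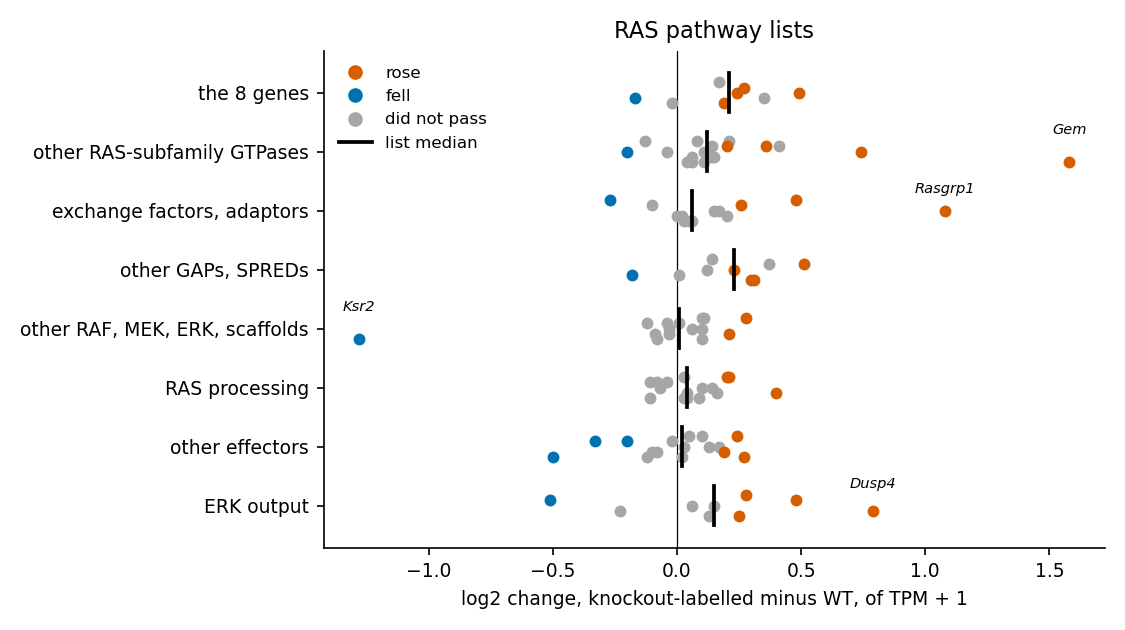
Log2 change (knockout-labelled minus WT) of each tested gene of the 7 pathway lists and of the 8 genes in the top row, orange where the gene rose, blue where it fell and grey where it did not pass, with black bars at the list medians and names beside changes beyond 0.75. Gem (1.58) and Rasgrp1 (1.08) lie farthest to the right. Ksr2 (-1.28), which reached the filter only in the WT libraries, lies farthest to the left.

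The genes whose values over the 4 libraries were most like those of Nras were sought among 9670 genes averaging at least 5 TPM, by the Euclidean distance between log2(TPM + 1) values centred on each gene's mean. They were Il3ra, the IL-3 receptor alpha chain (distance 0.010), Herpud1 (0.014) and Plp2 (0.018). Il3ra measured 51.2 and 51.8 TPM in WT and 60.8 and 63.5 TPM in the libraries labelled knockout, a change of 0.27. That this equals the change of Nras follows from how Il3ra was chosen. With spike-in scaling its change was 0.15 and did not pass (limma, adjusted p = 0.21). For Nf1 the nearest were Tbc1d31 (0.018), Eid1 (0.022) and Cep97 (0.032). With 4 libraries and so many genes, near matches are a description of these libraries only.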

How the data were processed

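RNA was sequenced from 4 libraries, 2 labelled WT and 2 labelled Tet2 KO, after QIAzol extraction and a KAPA stranded mRNA kit, per the labels' protocols. The authors deposited expression values that were read as TPM, since each column sums to 1000000. Per the submitters' processing notes, the tools were RSEM and STAR with mm10, and the sources used here give no version, annotation or strand setting. The 92 ERCC spike-in entries share the total and were left out of the tests. TPM keep no depth, so no counting interval is given.

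A gene was tested where 2 or more libraries reached 1 TPM, and log2(TPM + 1), with a pseudocount of 1, was fitted with limma 3.58.1 in R 4.3.3, with a variance trend and no replicate block. The fit had 2 residual degrees of freedom and a prior of 3.51. Changes on the log2(TPM + 1) scale understate those of low genes. Whether replicates were separate cultures is not stated, so p-values reflect only how far these libraries spread, which could be technical. The limma step was tested on simulated data in which 200 of 11837 genes changed, by a shift of 0.3 or 1. It found 85% and 100% of them, with 4.13% of the calls false. Smaller shifts, and a share of called genes like the 30.5% here, are not covered by that simulation. Length and GC content came from GENCODE release M21, which matched 97.4% of tested symbols.

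The 8 genes, the lists and the tests were chosen with earlier results of these data known. Named genes were the 8, up to 4 of smallest p in each list, RAS, RAF, MEK and ERK genes fixed by name, and the 3 nearest in pattern to Nras and to the member of largest change. Some genes of this rule are not reported here. The alternatives were a replicate block, 4 other scalings, pseudocounts of 0.1 and 5, a filter at 5 TPM or none, other variance settings, an adjusted p under 0.01, removal of the trend with GC content and length, and leaving out each library.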

Additional observations from a re-analysis of the deposited data

How the results depend on the processing

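Nf1 was called under all 17 alternatives, and no member other than Braf changed sign. Over all genes, 2237 were called higher and 1369 lower (62.0% higher). Spike-in scaling gave 631 higher and 1477 lower calls (29.9% higher), and trimmed-mean scaling a share of 48.2% higher. An adjusted p under 0.01 gave 839 higher and 666 lower. Leaving out each library gave 628 to 2190 higher and 602 to 1065 lower calls, the lowest ones without a knockout-labelled library, where that group has a single library assumed to vary like the other. Of the 8 genes, 4 were called higher. This became 1 with spike-in scaling, 2 with the total rescaled without granulocyte genes and spike-ins, 2 with no filter, 2 with no variance trend, 2 at an adjusted p under 0.01, and 1 to 5 when each library was left out. The 1 lower call, Hras, became 0 with the replicate block, a crossed replicate block, spike-in scaling, no filter, a pseudocount of 5, no variance trend, removal of the GC and length trend, an adjusted p under 0.01, and without each library (0 to 0). Pathway list calls, 23 higher and 8 lower, became 6 higher and 9 lower with spike-in scaling, 8 higher and 3 lower at an adjusted p under 0.01, and 5 lower with no variance trend, and 7 to 27 higher and 2 to 4 lower when each library was left out.

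For single members, spike-in scaling ended the calls of Nras (0.16), Hras (-0.28), Rras (0.07) and Sos1 (0.13). Rescaling without granulocyte genes and spike-ins ended those of Rras (0.16) and Sos1 (0.21), quantile and trimmed-mean scaling that of Rras (0.16 and 0.14), a pseudocount of 5 that of Hras (-0.14), and the GC and length trend those of Hras (-0.14) and Sos1 (0.11). No filter, no variance trend and an adjusted p under 0.01 each ended the calls of Hras (-0.17), Rras (0.19) and Sos1 (0.24). Leaving out each library gave 0.24 to 0.31 for Nras, -0.19 to -0.15 for Hras, 0.14 to 0.23 for Rras, 0.18 to 0.30 for Sos1, 0.10 to 0.23 for Rasa1, 0.20 to 0.49 for Rras2 and -0.07 to 0.02 for Braf, whose sign turned without WT replicate 2 (0.02). The causes were not tested.

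The numbers in the labels gave no sign of pairing (r = -0.11 over 11837 genes between deviations of the same-numbered libraries). With 2 libraries per group the crossed value (0.11) is fixed by this one, so it cannot show that the libraries were unpaired. With the replicate block Hras (-0.17, adjusted p = 0.080) and Rras (0.19, adjusted p = 0.070) did not pass. The crossed pairing, chosen after seeing the data, called 2136 genes higher and 1327 lower. Among the named genes outside the 8 none that was called changed sign. Of those not called, Araf was at -0.01 with spike-in scaling, and Map2k1 at 0.01 without knockout-labelled replicate 1. Without counts, precision is limited by the 2 libraries per group, most of all for Rras2 at 3.22 to 5.30 TPM.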
